A study of Mus musculus with 24 samples.

Results

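The HoxD genes were examined in calibrated RNA-seq (cRNA-seq) of mouse embryonic stem cells (ESCs) in which PRC1, or only its catalytic activity, could be removed. The 9 genes Hoxd1, Hoxd3, Hoxd4, Hoxd8, Hoxd9, Hoxd10, Hoxd11, Hoxd12 and Hoxd13 were taken from a table of 20633 rows by their symbols. A HoxD symbol stood on 10 rows, because Hoxd11 had a pair of them, and for each symbol the row with the larger summed normalised read count was used. Hox genes encode homeodomain transcription factors that set the identity of body segments and limb parts, and they lie in clusters whose order along the chromosome follows the order in which they are used along the body axis. In ESCs the Hox clusters are well-known targets of the Polycomb system. PRC1 is the Polycomb complex whose RING1A or RING1B subunit places ubiquitin on a histone, PRC2 is the complex that methylates another histone, and both are found over silent Hox clusters.

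Both lines were made from E14 ESCs, which are male, and each was a single clone. PRC1CKO cells (clone B9) were Ring1a-/-, had loxP sites around an early exon of both Ring1b copies (fl/fl), and carried a Cre recombinase fused to the oestrogen receptor at Rosa26 (Rosa26::ERT2-Cre), so that 4-hydroxytamoxifen (OHT) removed RING1B and with it PRC1. PRC1CPM cells (clone 41) carried the I50A and D53K substitutions in Ring1a from the start and the same Rosa26::ERT2-Cre. Their Ring1b fl/fl allele is switched by Cre from wild type to a form with I53A and D56K, so that OHT left PRC1 complexes without catalysis. The study found the amount of RING1B protein largely unchanged by this. Its binding, however, fell strongly at sites that normally hold much PRC1 and PRC2. Positions in these substitutions are counted along the RING1A and RING1B proteins. Untreated cells of each line therefore already lacked RING1A or its activity, and no group of cells with intact Ring1a, or without Cre, was measured. Each line was profiled untreated and after 72 h with 800 nM OHT, with 3 replicates in each of the 4 conditions (12 RNA libraries). Each library held RNA of added Drosophila SG4 cells as a spike-in, and had a matched library of genomic DNA (gDNA) to correct for the mixing of cells. Each library held between 14668159 and 27016156 reads on genes. In bulk RNA, fewer cells with a transcript and less transcript per cell cannot be told apart.

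The HoxD rows spanned 96833 bases of mouse chromosome 2 (mm10), all on the plus strand. In order they were Hoxd13 (chr2:74668310-74671599), Hoxd12 (chr2:74675013-74677705), Hoxd11 (chr2:74679558-74687016), Hoxd10 (chr2:74691891-74695106), Hoxd9 (chr2:74697763-74700208), Hoxd8 (chr2:74704615-74707932), Hoxd3 (chr2:74711993-74748271), Hoxd4 (chr2:74721978-74729159) and Hoxd1 (chr2:74762980-74765142). Hoxd13 to Hoxd10 are called posterior here and are used late and towards the tail and the tips of the limbs, while Hoxd1, Hoxd3 and Hoxd4 are anterior. Reads were counted over whole gene bodies, introns included. The Hoxd4 row lay wholly inside the Hoxd3 row and shared 7182 bases with it, so its reads may have been counted for both, and 4138 bases of Hoxd3 also lay under the antisense gene Hoxd3os1. The strand used in counting is not given in the sources used here. The Hoxd11 row used held the whole of the shorter one.

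The starts of Hoxd13, Hoxd10 and Hoxd1 are shown because these genes stand for the posterior end, one of the genes that differed most between the OHT-treated lines and the gene that differed least. Each is the 250 bases before the RefSeq start (GRCm38.p6, plus strand, 5′ to 3′) with CG dinucleotides in capitals, at chr2:74667975-74668224, chr2:74691641-74691890 and chr2:74762730-74762979. The RefSeq start of Hoxd13, at 74668225, lies before the start of its row.
Hoxd13: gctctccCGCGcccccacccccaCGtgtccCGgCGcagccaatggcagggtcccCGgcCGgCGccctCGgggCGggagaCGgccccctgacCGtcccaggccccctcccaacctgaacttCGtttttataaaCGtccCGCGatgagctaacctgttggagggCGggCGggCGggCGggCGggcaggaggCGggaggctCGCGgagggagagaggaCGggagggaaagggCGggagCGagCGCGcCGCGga
Hoxd10: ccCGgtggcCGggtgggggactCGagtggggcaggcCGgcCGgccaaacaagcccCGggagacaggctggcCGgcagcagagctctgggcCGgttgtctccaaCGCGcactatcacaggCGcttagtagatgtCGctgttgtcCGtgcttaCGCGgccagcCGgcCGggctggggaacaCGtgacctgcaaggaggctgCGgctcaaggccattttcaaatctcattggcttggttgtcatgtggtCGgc
Hoxd1: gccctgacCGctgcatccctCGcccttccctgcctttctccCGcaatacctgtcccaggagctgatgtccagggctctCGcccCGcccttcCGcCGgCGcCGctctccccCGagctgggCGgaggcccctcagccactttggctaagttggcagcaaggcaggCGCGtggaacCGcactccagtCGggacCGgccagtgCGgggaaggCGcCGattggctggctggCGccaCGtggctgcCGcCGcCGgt
They held 31, 20 and 24 CG dinucleotides. CG-rich starts of this kind are the usual sites of Polycomb complexes in ESCs. All 9 genes matched RefSeq, with 10 windows of 300 bases (250 before to 50 after a start), and the median window held 20 CG against 7 over all 32851 windows of mouse genes. The range was wide, from 4 in the windows of Hoxd4 and of the Hoxd11 row used to 37 in that of Hoxd13. The letters TATAAA, searched on both strands, were in 2 of the 10 windows (Hoxd13 and Hoxd4) and in 13.6% of all windows.

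An intron of Hoxd4 also holds the microRNA gene Mir10b (chr2:74726070-74726137), whose mature products are shown with the seed (bases 2 to 8) in capitals because their precursor lies within the rows of Hoxd4 and Hoxd3. These mature RNAs were not measured in these libraries.
mmu-miR-10b-5p: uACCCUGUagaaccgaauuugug
mmu-miR-10b-3p: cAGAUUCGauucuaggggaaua

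The targeted genes were looked at first. Ring1, which encodes RING1A, stood at 227 ± 76.3 normalised reads (SD, n = 3) in untreated and 254 ± 26.4 in OHT-treated PRC1CKO cells, and at 162 ± 32.2 and 140 ± 25.8 in PRC1CPM cells. Rnf2, which encodes RING1B, stood at 1526 ± 201 and 1546 ± 50.8 in PRC1CKO cells and at 1696 ± 140 and 1511 ± 214 in PRC1CPM cells. Neither passed the test in either line. Reads were counted over the whole gene body and not apart for a lost or exchanged exon, so these values do not check the labels. This holds too for Ring1 in PRC1CKO cells, where the study deleted the first exons of Ring1a and reads of the gene remained. Pou5f1, Sox2, Nanog and the other 6 measured ESC markers were abundant in every condition, with a summed level of 80477 ± 17634 in untreated and 62077 ± 5031 in OHT-treated PRC1CKO cells and of 69128 ± 12283 and 64391 ± 18395 in PRC1CPM cells. Of these 9, 2 fell in PRC1CKO cells (Sox2 by 0.89 and Utf1 by 0.79 on the log2 scale), where 3.09% of all rows tested fell, and 0 passed in PRC1CPM cells, where 1.4% fell.

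The HoxD genes were nearly silent in untreated cells of both lines. Their summed level was 128, 67.7 and 33.0 normalised reads in untreated PRC1CKO replicates 1, 2 and 3, and 107, 70.7 and 82.7 in untreated PRC1CPM replicates. Replicate 1 of untreated PRC1CKO cells was the highest and replicate 3 the lowest of these, and the lines overlapped. Hoxd12 had no read in any untreated PRC1CPM library and 4 reads in all in the untreated PRC1CKO libraries. Hoxd11, Hoxd10 and Hoxd4 had 6, 7 and 6 reads in all in untreated PRC1CKO cells and 9, 10 and 12 in untreated PRC1CPM cells. Hoxd13, Hoxd9, Hoxd8, Hoxd3 and Hoxd1 had between 26 and 48 reads in all in either line. Because of these numbers, the filter of at least 10 reads in at least 3 libraries was passed by Hoxd12, Hoxd11, Hoxd10 and Hoxd4 only through OHT-treated libraries, which had to be higher for the gene to be tested at all. With limma on log2(normalised read count + 1), 0 of the 9 genes differed between untreated PRC1CPM and untreated PRC1CKO cells, where 2.21% of all 16940 rows tested were higher and 0.478% lower. At an unadjusted p under 0.05 there was 1 gene (Hoxd11, higher in PRC1CPM cells, as were 11.9% of all rows), and DESeq2 and edgeR on the recovered reads called 0. Without untreated PRC1CKO replicate 1, limma called Hoxd3 higher in untreated PRC1CPM cells, against 8.81% of all rows, and without replicate 2 it called Hoxd11, against 1.29%. With the replicate number as a block it called both of these genes higher, against 9.63% of all rows.

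After OHT treatment of PRC1CKO cells, every HoxD gene rose. All 9 were called higher (adjusted p below 0.05 and more than 1.5-fold), where 16.5% of all rows tested were called higher. In all 9, every treated library lay above every untreated one, as it did in 22.1% of all rows. Hoxd12, Hoxd11, Hoxd10 and Hoxd4 were tested only through OHT-treated libraries, so these genes add no support to either count. Hoxd13, Hoxd9, Hoxd8, Hoxd3 and Hoxd1 did not need those libraries to pass the filter. Without the filter limma called all 9 higher too, where 2658 of 19791 rows were called higher. Their median log2 fold change was 4.73, against 0.12 for all rows tested. The summed level reached 1602, 1246 and 1192 normalised reads. Without Hoxd3, whose row holds that of Hoxd4, the sum was 17.1-fold that of untreated cells. Untreated replicate 1 weighed on this base, since the summed level of all 9 genes was 76.3 in untreated cells and 50.4 without that library.

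**Figure D1:**
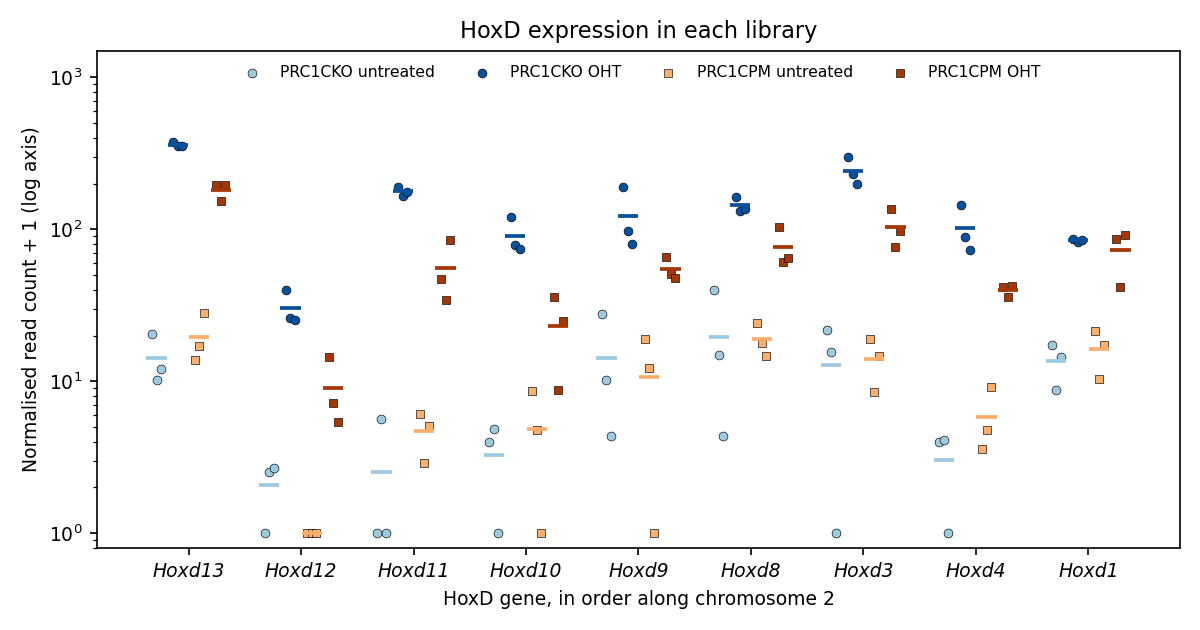
Normalised read counts + 1 (log axis) of the 9 HoxD genes, in their order along chromosome 2, in each of the 12 libraries. Each point is a library and each bar the mean of 3 replicates of a condition, circles are PRC1CKO and squares PRC1CPM cells, and the OHT-treated points of each line lie above its untreated points in all 9 genes.

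Among the posterior genes, Hoxd13, which patterns the digits, stood at 19.4, 9.23 and 11.0 normalised reads in untreated PRC1CKO replicates 1 to 3 and at 374, 351 and 351 after OHT. The treated libraries were close to each other, and the log2 fold change was 4.73 ± 0.37 (SE, adjusted p = 1.11e-14). Hoxd12, another gene of the distal limb, went from 0, 1.54 and 1.69 to 38.9, 25.0 and 24.4. The test gave 3.97 ± 0.74 (adjusted p = 3.35e-05), and since only 2 read pairs were seen before treatment, the ratio of read pairs was 23.2 with a 95% counting interval of 6.08 to 197. Hoxd11, which acts in the forearm and kidney with its paralogue Hoxa11, went from 0, 4.62 and 0 to 189, 166 and 175. It had the largest log2 fold change of the cluster, 6.64 ± 0.57 (adjusted p = 1.71e-13), on a ratio of read pairs of 93.0 (31.5 to 454, from 3 pairs). Hoxd10, known for its part in motor neurons of the hindlimb, went from 2.98, 3.85 and 0 to 119, 77.8 and 73.3. Replicate 1 was the highest of the treated libraries, and the log2 fold change was 5.05 ± 0.67 (adjusted p = 2.87e-08). Without untreated replicate 2, the only untreated library with reads of Hoxd11, the value of Hoxd11 was 7.47, and without untreated replicate 3 that of Hoxd10 was 4.34. Counting intervals cover counting error only.

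In the middle of the cluster, Hoxd9 stood at 26.8, 9.23 and 3.38 before and at 189, 96.3 and 79.4 after OHT, and Hoxd8 at 38.7, 13.9 and 3.38 before and at 163, 131 and 134 after. In both, untreated replicate 1 was the highest and replicate 3 the lowest of the untreated libraries, and neither overlapped the treated ones. The log2 fold changes were 3.41 ± 0.63 for Hoxd9 (adjusted p = 2.71e-05) and 3.38 ± 0.48 for Hoxd8 (adjusted p = 1.40e-07). Their size rested on the untreated libraries: without replicate 1 it was 4.09 for Hoxd9 and 4.15 for Hoxd8, and without replicate 3 it was 2.76 and 2.56. Both genes take part in patterning the trunk.

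Among the anterior genes, Hoxd3, which shapes the first neck vertebrae, went from 20.9, 14.6 and 0 to 300.1, 229.6 and 199 normalised reads. The log2 fold change was 5.10 ± 0.57 (adjusted p = 4.21e-10). It was 3.70 without untreated replicate 3, which had no read, and 5.93 without untreated replicate 1, and DESeq2 gave 4.40. Hoxd4, a gene of the hindbrain and neck, went from 2.98, 3.08 and 0 to 143, 87.9 and 72.4. It rose by 5.27 ± 0.56 on the log2 scale (adjusted p = 9.86e-11), on a ratio of read pairs of 53.0 (17.8 to 259, from 3 pairs), and by 4.60 without untreated replicate 3. The Hoxd3 level less that of Hoxd4 was 58.4% of the Hoxd3 level in treated PRC1CKO cells, which is the share outside Hoxd4 if its reads were counted for both rows. Hoxd1, which acts in sensory neurons, went from 16.4, 7.70 and 13.5 to 85.9, 81.5 and 83.7. The treated replicates were nearly equal, and its log2 fold change of 2.70 ± 0.44 (adjusted p = 3.09e-06) was the smallest of the cluster, except that without untreated replicate 3 it was 2.78, above Hoxd8 and Hoxd9 (2.56 and 2.76).

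After OHT treatment of PRC1CPM cells, where PRC1 complexes remain without their activity, every HoxD gene rose as well. All 9 were called higher, where 13.1% of all rows tested were, and in all 9 the treated libraries lay above the untreated ones (18.7% of all rows). Here too, Hoxd12, Hoxd11, Hoxd10 and Hoxd4 were tested only through OHT-treated libraries and are not taken as support for these counts. The median log2 fold change was 2.92, or 2.89 with Hoxd12 at its lower bound, against 0.10 for all rows. The summed level was 718, 462 and 648 normalised reads in treated replicates 1 to 3, and without Hoxd3 it was 6.86-fold that of untreated cells. Treated replicate 2 was the lowest of the 3, and it was also the lowest in the summed ESC markers, at 43172 against 75841 and 74160.3. Without that library all 9 genes were still called higher, and the mean summed level was 683 in place of 609.

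Hoxd13 went from 12.8, 16.0 and 27.1 to 196, 153 and 196 normalised reads in PRC1CPM cells, a log2 fold change of 3.27 ± 0.37 (adjusted p = 1.85e-09). Hoxd12 went from no read to 13.5, 6.19 and 4.38. It passed the test (adjusted p = 0.00204). Against a floor of 3 read pairs over the untreated group, its lower bound was 3.45-fold. This bound leaves out counting error in the treated reads, and the 95% counting interval of the ratio begins at 2.43. Hoxd11 went from 5.11, 1.88 and 4.07 to 46.3, 33.2 and 84.3, with replicate 3 the highest, a log2 fold change of 3.53 ± 0.57 (adjusted p = 4.68e-06). Hoxd10 went from 7.67, 3.77 and 0 to 34.7, 7.73 and 24.1. Its treated replicate 2 barely cleared untreated replicate 1, and the log2 fold change was 2.52 ± 0.67 (adjusted p = 0.00509). This call was lost without treated replicate 1 (2.10, adjusted p = 0.0697) and without untreated replicate 3 (1.63, adjusted p = 0.115), while the value was 3.18 without untreated replicate 1 and 3.11 without treated replicate 2, and over all 25 alternatives its adjusted p ran from 3.82e-05 to 0.115.

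Hoxd9 went from 17.9, 11.3 and 0 to 64.7, 49.5 and 47.1 in PRC1CPM cells, and Hoxd8 from 23.0, 17.0 and 13.6 to 102, 60.3 and 63.5. The treated libraries lay apart from the untreated ones in both genes, with log2 fold changes of 3.14 ± 0.63 (adjusted p = 0.000161) and 2.01 ± 0.48 (adjusted p = 0.00164). That of Hoxd9 was 1.83 without untreated replicate 3, which had no read, and 3.95 without untreated replicate 1, and DESeq2 gave 2.45. Hoxd3 went from 17.9, 7.54 and 13.6 to 134, 75.8 and 96.4, and Hoxd4 from 2.56, 3.77 and 8.13 to 40.5, 34.8 and 41.6. Their log2 fold changes were alike, 2.92 ± 0.57 and 2.89 ± 0.56, on rows that overlap. Hoxd1 went from 20.5, 9.42 and 16.3 to 85.9, 41.0 and 90.9. Treated replicate 2 was less than the other two but above every untreated library, and the log2 fold change was 2.15 ± 0.44 (adjusted p = 0.000258).

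**Figure D2:**
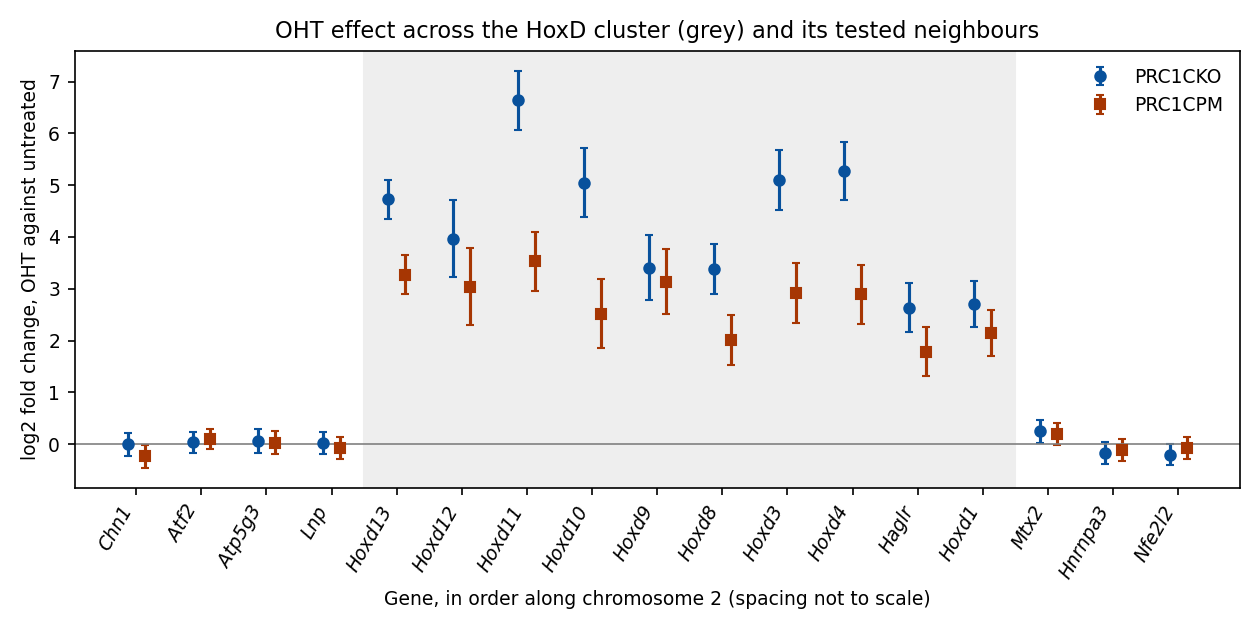
log2 fold change (± SE, 3 replicates a condition, limma) of OHT-treated against untreated cells for the 9 HoxD genes and Haglr (grey background) and the 7 tested genes within 1 Mb on either side, in chromosome order with spacing not to scale. Circles are PRC1CKO and squares PRC1CPM cells, the HoxD genes lie between 2.01 and 6.64, and the neighbours outside the cluster between -0.23 and 0.25. Hoxd12 had no read in untreated PRC1CPM cells, so its square is a fitted value. Its lower bound of 1.79 rests on a floor of 3 untreated read pairs and leaves out counting error in the treated reads.

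The lines were then compared directly after OHT treatment. They differed in clone and in the Ring1a allele as well as in how RING1B was changed. These differences cannot be told apart in this comparison or in the interaction given below. All 9 HoxD genes had a lower mean in PRC1CPM than in PRC1CKO cells. In 8 of them every PRC1CPM library lay below every PRC1CKO library, as it did in 4.35% of all rows tested, and Hoxd1 overlapped. Hoxd12 reached 10 reads in 3 treated PRC1CKO libraries, in 1 treated PRC1CPM library and in 0 untreated ones. It could be tested only because it was high in treated PRC1CKO cells, so its place in the counts of this comparison is not support. With limma, however, 0 of the 9 was called lower, where 0.218% of all rows were called lower and 1.25% higher. At an unadjusted p under 0.05 there were 6 (Hoxd13, Hoxd12, Hoxd11, Hoxd10, Hoxd3 and Hoxd4), against 2.14% of all rows lower at that p. DESeq2 on the recovered reads called 4 lower (Hoxd10, Hoxd11, Hoxd13 and Hoxd4), against 0.502% of all rows. With TMM scaling limma called 1 (Hoxd13, against 1.54%). edgeR called 2 (Hoxd10 and Hoxd11, against 0.348%), and edgeR on read pairs called 5 (Hoxd10, Hoxd11, Hoxd12, Hoxd3 and Hoxd4, against 0.484%). Same-numbered treated libraries of the lines deviated together (correlations of 0.225, 0.140 and 0.141), and with the replicate number as a block limma called 5 lower (Hoxd10, Hoxd11, Hoxd13, Hoxd3 and Hoxd8, against 1.37%). DESeq2 with that block called 4 (Hoxd12, Hoxd13, Hoxd4 and Hoxd8, against 1.4%). The call for this comparison therefore depended on the processing. The median log2 difference of the 9 genes was -1.26, against 0.097 for all rows.

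Hoxd10 and Hoxd11 were the genes that both DESeq2 and edgeR called without the block, and neither was called by DESeq2 with it (adjusted p = 0.0979 and 0.125). The mean of Hoxd10 in treated PRC1CPM cells was 24.6% of that in treated PRC1CKO cells, a log2 difference of -2.16 with a 95% interval of -3.51 to -0.82 (adjusted p = 0.0930 with limma), or -1.57 without treated PRC1CPM replicate 2. The mean of Hoxd11 was 30.9%, a difference of -1.78 (-2.92 to -0.63, adjusted p = 0.107), and that of Hoxd12 was 27.3% (-1.85, -3.34 to -0.36). Hoxd13 reached 50.7% (-0.99, -1.74 to -0.23). Hoxd4 and Hoxd3 reached 38.6% and 42.0%, and Hoxd9 and Hoxd8 44.2% and 52.8%. Hoxd1 reached 86.7%, and its interval of -1.18 to 0.61 spanned 0. Its difference turned to 0.078 without treated PRC1CPM replicate 2. Whether Hoxd1 differed from the other genes in this respect was not tested. Over the cluster without Hoxd3, the summed level in treated PRC1CPM cells was 46.0% of that in treated PRC1CKO cells.

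**Figure D3:**
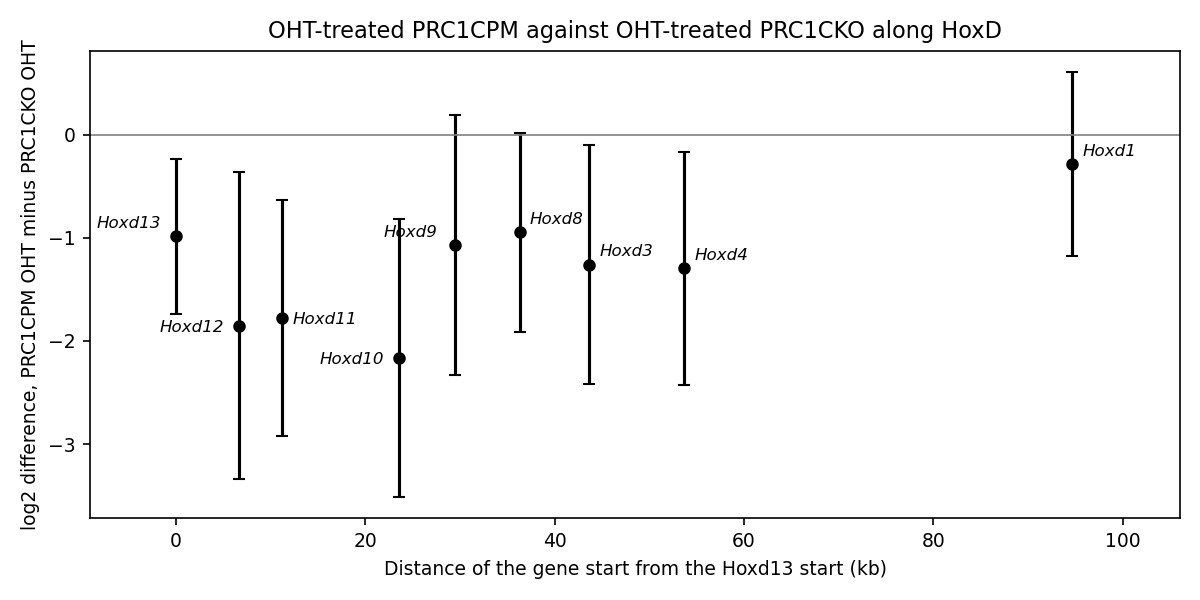
log2 difference between OHT-treated PRC1CPM and OHT-treated PRC1CKO cells for each HoxD gene, with its 95% interval from limma (3 replicates in each line), against the distance of the gene start from that of Hoxd13 (kb). All 9 points lie below 0, from -2.16 for Hoxd10 to -0.29 for Hoxd1, and the intervals of Hoxd9, Hoxd8 and Hoxd1 cross 0. Without treated PRC1CPM replicate 2 the Hoxd1 value was 0.078.

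The OHT effects of the lines were also set against each other as an interaction of line and treatment, which uses the untreated cells of each line as its base. By limma all 9 interaction terms lay below 0, from -3.11 for Hoxd11 to -0.27 for Hoxd9, with a median of -1.45 against -0.018 for all rows. None was called by limma, where 0.0236% of all rows were called lower. At an unadjusted p under 0.05 there were 6 (Hoxd13, Hoxd11, Hoxd10, Hoxd8, Hoxd3 and Hoxd4), against 2.18% of all rows lower at that p, and DESeq2 and edgeR called 0. With the replicate number as a block, limma called 4 (Hoxd11, Hoxd13, Hoxd3 and Hoxd4, against 1.45% of all rows) and DESeq2 called 1 (Hoxd13, against 1.04%). The terms of Hoxd9 and Hoxd12 changed sign with the processing. Single untreated libraries also moved the size of other terms. With 1 library left out, the term of Hoxd11 reached -3.94 (untreated PRC1CKO replicate 2), and that of Hoxd3 ran from -3.01 to -0.78 and that of Hoxd8 from -2.14 to -0.55 (untreated PRC1CKO replicates 1 and 3). That of Hoxd4 was -1.71 and that of Hoxd10 -1.82 without untreated PRC1CKO replicate 3, and that of Hoxd10 reached -3.42 without untreated PRC1CPM replicate 3. The interaction and the comparison of the treated lines share the OHT-treated libraries, so they are not independent.

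Along the chromosome, the distance from the Hoxd13 start had a Spearman rho of -0.20 with the log2 fold change in PRC1CKO and of -0.67 in PRC1CPM cells (-0.27 with Hoxd12 at its lower bound) over the 9 genes, which share libraries and of which Hoxd3 and Hoxd4 overlap. In PRC1CKO cells Hoxd11, with the largest change, lay 11.2 kb from the Hoxd13 start, Hoxd4, with a change of 5.27, 53.7 kb, and Hoxd1, with one of 2.70, 94.7 kb.

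Levels between genes were compared per kilobase of gene body. In treated PRC1CKO cells Hoxd13 was the highest at 109 ± 4.12 normalised reads per kb (SD, n = 3), with every library above those of the next gene, Hoxd9, at 49.7 ± 24.1. Hoxd9, Hoxd8 (43.0 ± 5.21) and Hoxd1 (38.7 ± 1.02) followed with overlapping libraries between neighbours. Hoxd10 (28.0 ± 7.89) and Hoxd11 (23.7 ± 1.57) overlapped each other, as did Hoxd4 (14.1 ± 5.15) and Hoxd12 (10.9 ± 3.04), and Hoxd3 was the lowest at 6.69 ± 1.43. Most of the long Hoxd3 body is intron, and over exon length Hoxd3 would be the third in this order and Hoxd1 the seventh. In treated PRC1CPM cells Hoxd13 was again the highest (55.2 ± 7.53 per kb), followed by Hoxd1 (33.6 ± 12.7), Hoxd8 (22.7 ± 7.05) and Hoxd9 (22.0 ± 3.90), of which neighbours overlapped. The other 5, from Hoxd11 (7.33 ± 3.56) to Hoxd3 (2.81 ± 0.816), lay below these, and each overlapped its neighbour. Over exon length Hoxd3 (35.2 per kb) would instead be the fourth here, above Hoxd9 (25.6). In untreated cells of both lines Hoxd1, Hoxd8, Hoxd9 and Hoxd13 were the 4 highest per kb, and neighbours among these 4 overlapped. Hoxd13 was the fourth in untreated PRC1CKO cells, at 4.01 ± 1.65 per kb, and the second in untreated PRC1CPM cells, at 5.67 ± 2.28, and the first after OHT in both lines.

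Within 1 Mb on either side of the cluster there were 10 other rows, of which 7 could be tested. Of these 7, limma, DESeq2 and edgeR called 0 in either line. By limma, 19.5% of all rows tested were called in either direction in PRC1CKO and 14.5% in PRC1CPM cells. With only 7 genes, a count of 0 is not far from these shares and is not read as a result. At an unadjusted p under 0.05 limma also had 0, for which the share of all rows is not given. The nearest tested gene beyond Hoxd13 was Lnp, which shapes the endoplasmic reticulum, 89.4 kb away. It stood at 3197 ± 686 and 3199.8 ± 125 normalised reads in untreated and treated PRC1CKO cells and at 3216 ± 573 and 3048 ± 523 in PRC1CPM cells. Beyond Hoxd1 it was Mtx2, a gene of the mitochondrial outer membrane, 60.7 kb away, at 1379 ± 154 and 1632 ± 62.1 in PRC1CKO and 1195 ± 173 and 1374 ± 190 in PRC1CPM cells.

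Closer in, Evx2, a homeobox gene 8.89 kb beyond Hoxd13 that is transcribed away from it, had too few reads to be tested. It had no read in any untreated library, stood at 9.04, 9.26 and 5.23 in treated PRC1CKO cells, and at 0, 1.55 and 2.19 in treated PRC1CPM cells. Haglr, a non-coding RNA that starts 84 bases from Hoxd1 and runs away from it into the cluster, was called higher in both lines. It went from 14.2 ± 10.2 to 81.6 ± 22.5 in PRC1CKO cells (log2 fold change 2.63 ± 0.47, adjusted p = 1.67e-05) and from 20.4 ± 10.9 to 68.7 ± 21.6 in PRC1CPM cells (1.78 ± 0.47, adjusted p = 0.00500). As with Hoxd1, the treated libraries of the lines overlapped. Hoxd3os1, antisense to Hoxd3, had at most 10 reads in a library and was not tested.

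The genes whose levels followed the cluster most closely were sought by Pearson's r with the log2 summed HoxD level over the 12 libraries, leaving out the other Hox genes. The 4 highest were Epha5 (r = 0.990), an ephrin receptor, Pcdh19, a protocadherin, Slc25a20, the mitochondrial carnitine carrier, and Slc7a2 (r = 0.987), a transporter of basic amino acids. These libraries were of treated and untreated cells, so r includes the gap between them. Epha5 went from 16.6 to 201 in PRC1CKO and from 24.0 to 138 normalised reads in PRC1CPM cells (group means).

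Of the genes known to act with or upstream of Hox genes (Pbx, Meis and Pknox cofactors and Cdx factors), 11 of 12 could be tested, and 5 rose in each line (16.5% of all rows rose in PRC1CKO and 13.1% in PRC1CPM cells), with a median log2 fold change of 1.04 in PRC1CKO and 0.99 in PRC1CPM cells. Meis1, a cofactor that binds DNA with Hox proteins, went from 108 to 1548 in PRC1CKO (3.93 on the log2 scale) and from 131 to 937 in PRC1CPM cells (2.84). Meis2 went from 152 to 1103 (2.98) and from 62.6 to 153 (1.27). It was the only gene of this list called lower in treated PRC1CPM than in treated PRC1CKO cells, by limma (log2 difference -2.84). It was already lower in untreated PRC1CPM cells (-1.13, adjusted p = 0.0309), and its interaction was not called (adjusted p = 0.289). Cdx1, an activator of Hox genes, rose by 1.85 in PRC1CKO and 3.12 in PRC1CPM cells, from an untreated level that was also lower in PRC1CPM cells (-1.40, adjusted p = 0.0148). The treated lines were not called different in Cdx1 (-0.13). Pknox2 rose by 1.08 and 1.05. Meis3 rose by 1.09 in PRC1CKO cells (0.99 in PRC1CPM cells, not called), and Cdx2 by 1.71 in PRC1CPM cells (1.04 in PRC1CKO cells, not called). The 4 Pbx genes and Pknox1 were abundant before treatment and none was called, with Pbx4 the lowest at -0.56 in PRC1CKO and -0.22 in PRC1CPM cells.

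The other Hox clusters are given beside HoxD. In PRC1CKO cells 8 of 11 tested HoxA, 5 of 8 HoxB and 9 of 9 HoxC genes rose, with median log2 fold changes of 2.91, 2.08 and 3.14. In PRC1CPM cells 11, 5 and 6 rose, with medians of 2.82, 2.27 and 2.00. Over all rows tested, 16.5% rose in PRC1CKO and 13.1% in PRC1CPM cells. No tested gene of these clusters fell in either line. By limma the log2 fold change was smaller in PRC1CPM than in PRC1CKO cells for 9 of 9 HoxD genes. The same held for 4 of 11 HoxA, 3 of 8 HoxB and 6 of 9 HoxC genes. Among HoxD genes it did not hold for Hoxd12 with DESeq2 (5.21 against 4.58) or edgeR (6.06 against 4.43). It also failed for Hoxd9 and Hoxd12 with a pseudocount of 0.1, and for Hoxd9 without the gDNA-seq correction (3.30 against 3.26). For Hoxd9 it failed in some fits with 1 library left out as well (interaction up to 0.54). Whether the clusters differed was not tested. The mean level after OHT, which also holds the difference between the untreated lines, was lower in PRC1CPM cells for 9 of 9 HoxD, 11 of 11 HoxA, 7 of 8 HoxB and 9 of 9 HoxC genes. The treated lines differed by limma in Hoxa10, Hoxa11 and Hoxc11, all lower in PRC1CPM cells. Hoxa11, the paralogue of Hoxd11, had no read in untreated PRC1CKO cells and a mean of 94.3 after OHT, against 1.76 and 16.2 in PRC1CPM cells. Hoxa10 went from 6.21 to 259.8 in PRC1CKO and from 0.63 to 68.2 in PRC1CPM cells. Its log2 fold changes were 5.22 and 5.57, and it was already lower in untreated PRC1CPM cells (-2.29, adjusted p = 0.00426). Hoxa13, the paralogue of Hoxd13, reached 29.7 and 25.4 in the treated lines.

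**Figure D4:**
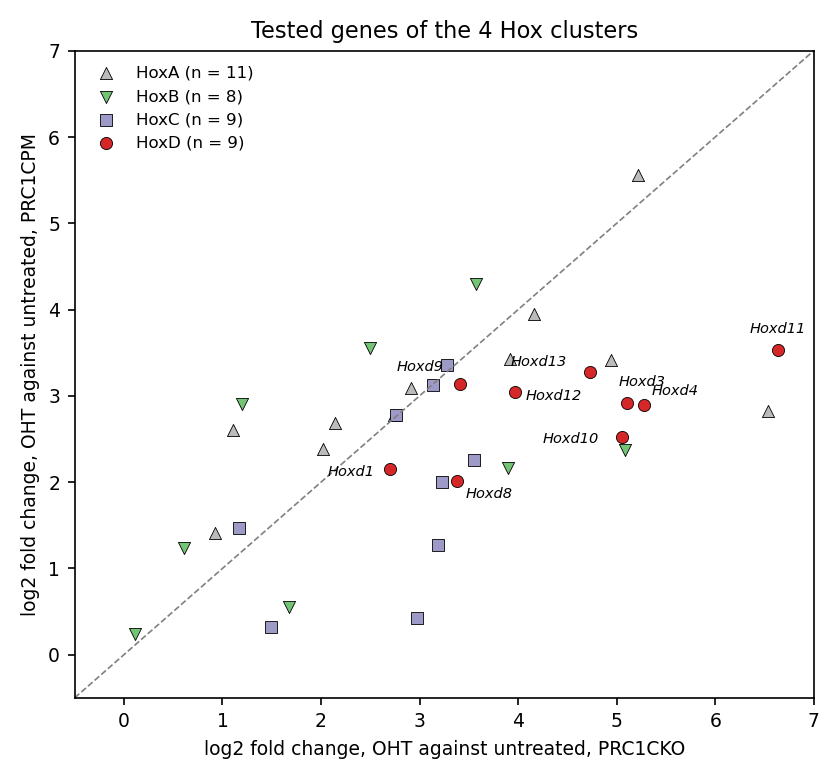
log2 fold change of OHT-treated against untreated cells in PRC1CKO (x axis) and PRC1CPM cells (y axis) for each tested gene of the 4 Hox clusters, with HoxD genes named. The dashed line marks equal change, and all 9 HoxD points lie below it by limma, while Hoxd12, which had no read in untreated PRC1CPM cells, was above it with DESeq2 and edgeR.

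Marker genes of cell types that ESCs can turn into moved in the same libraries, where 16.5% of all rows rose and 3.09% fell in PRC1CKO cells and 13.1% rose in PRC1CPM cells. Of 8 tested primitive endoderm markers 5 rose in PRC1CKO and 7 in PRC1CPM cells, and their summed level went from 6409 to 7820.4 and from 5585 to 6441 normalised reads, most of it Lama1, which was not called. Of 7 tested limb mesenchyme markers, a tissue in which HoxD genes are active, 7 and 6 rose, with a summed level from 167 to 958 and from 237 to 814, led by Fgf10 in untreated and Tbx4 in treated cells, and Hand2 was without a read in untreated PRC1CKO cells. Among neural markers 5 of 7 rose and 1 fell (Tubb3) in PRC1CKO cells and 3 rose in PRC1CPM cells, with a sum from 1456 to 2351 and from 1671 to 2138 that was led by Nes. Of 5 trophectoderm markers 3 rose and 1 fell (Tfap2c, the most abundant) in PRC1CKO cells and 4 rose in PRC1CPM cells, with sums from 1616 to 1579.8 and from 1121 to 1756. Of 6 early mesoderm markers 2 rose in each line (T and Kdr), with sums from 947 to 1253 and from 727 to 1223, led by Tcf15, while Msgn1 was without a read in treated PRC1CKO and in untreated PRC1CPM cells. Of 4 fibroblast markers 1 rose and 1 fell in PRC1CKO cells (Thy1 and Postn) and 0 passed in PRC1CPM cells. Col1a1 led their sum, which went from 3267 to 3432 and from 7436 to 8359, or from 4075 to 5267 without replicate 1 of either PRC1CPM condition. Lum was without a read in untreated PRC1CKO and in treated PRC1CPM cells. Many of these markers are Polycomb targets themselves, and their part in the HoxD values was not tested.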

How the data were processed

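Per the labels and the study's methods, cRNA-seq libraries (rRNA depleted, directional, paired-end) were freed of rDNA reads and aligned by the authors to joined mouse (mm10) and Drosophila (dm6) genomes with STAR and, for the rest, Bowtie2. Unique reads without PCR duplicates were kept, and DESeq2 size factors came from Drosophila reads, corrected by gDNA-seq. The deposited signal is a normalised read count for each gene body, that is reads divided by the size factor. The authors' log2 fold changes and adjusted p-values (8 columns) and their list of partially derepressed genes were not used, and the gDNA-seq libraries were not analysed here beyond that correction.

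In every library 100% of values were whole multiples of 1 step within 0.02 of a read, and dividing by it recovered the reads. Most small read numbers were even, as when both mates of a pair are counted, so counting intervals use read pairs (reads divided by 2, rounded up). The 16940 rows that reached 10 reads in 3 or more libraries were fitted as log2(normalised read count + 1) by limma 3.58.1 (R 4.3.3) on all 12 libraries, using condition means and moderation with a trend, and p-values were adjusted over all rows by Benjamini-Hochberg. Fold changes are on this scale. The added 1 lowers those of low genes, but a library at 0 pulls down the mean of its group on the log scale, so some lay above those of the count tools (Hoxd3 in PRC1CKO cells, 5.10 against 4.40 with DESeq2). Calls needed an adjusted p below 0.05 together with more than a 1.5-fold change, or the adjusted p alone for the interaction. edgeR 4.0.16 (quasi-likelihood) and DESeq2 1.42.0 were run on the recovered reads as alternatives, and called 2702 and 2757 rows higher and 549 and 560 lower after OHT in PRC1CKO cells, against 2787 and 524 by limma. Tested on simulated data of PRC1CKO cells over 16940 rows, limma called 19, 47, 46 and 50 of 50 genes changed by 1, 2, 3 and 5 on the log2 scale, with 8 unchanged genes called (9 by edgeR and 25 by DESeq2). The changed genes were drawn from all rows at any level, and replicates were simulated as independent. Only the OHT effect in PRC1CKO cells was tested. The rates therefore do not hold for genes as low as HoxD or for the comparison of the treated lines.

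The members and gene lists were chosen with earlier results of these data known. Named were the 9 members, Ring1 and Rnf2, rows within 1 Mb, cofactors that passed in a line or changed most, Hox paralogues, the 5 genes most like the summed HoxD level (1 of which is not reported here), and markers. Replicates were called biological by the study, and each line was 1 clone, so p-values cover the spread between cultures of that clone.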

Additional observations from a re-analysis of the deposited data

How the results depend on the processing

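All 9 HoxD genes were called higher in PRC1CKO cells under every alternative run, and in PRC1CPM cells 9 were, or 8 to 9 when 1 replicate was left out, where only Hoxd10 was lost. The comparison of the OHT-treated lines depended on the processing. Its count of genes called lower was 0 by limma, 4 with DESeq2, 2 with edgeR, 1 with TMM scaling (Hoxd13), 5 with edgeR on read pairs (chosen after the data were seen) and 0 to 2 when 1 replicate was left out. Hoxd10 and Hoxd11 were called without PRC1CKO untreated replicate 2 or PRC1CPM untreated replicate 1 or 2, Hoxd11 alone without PRC1CKO untreated replicate 1, and Hoxd10 alone without PRC1CPM untreated replicate 3. The share of all rows called lower in these fits is not given here. These calls are therefore not read as a result about the HoxD genes. The difference of Hoxd1 ran from -0.49 (without PRC1CPM OHT replicate 3) to 0.078 (without PRC1CPM OHT replicate 2). The interaction count was 0 by limma and 0 to 2 when 1 replicate was left out (Hoxd11 and Hoxd3 without PRC1CKO untreated replicate 2, Hoxd11 without PRC1CPM untreated replicate 2). For these fits too the share of all rows called lower is not given, and the calls are not read as a result. The interaction of Hoxd12 turned to 0.63 with DESeq2, 1.63 with edgeR, 0.75 with edgeR on read pairs, 0.74 with a pseudocount of 0.1 and 0.66 with the replicate block and DESeq2. That of Hoxd9 turned to 0.045 without the gDNA-seq correction, 0.72 with a pseudocount of 0.1, 0.10 without PRC1CKO OHT replicate 1, 0.38 without PRC1CKO untreated replicate 3, and 0.54 and 0.24 without PRC1CPM untreated replicates 1 and 2 (lowest -1.58, without PRC1CPM untreated replicate 3). The cause was not tested. The untreated lines gave 0 to 1 calls when 1 replicate was left out (Hoxd3 without PRC1CKO untreated replicate 1, Hoxd11 without PRC1CKO untreated replicate 2).

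Over all 4 conditions the samples shared only a number: 17 of 18 same-numbered pairs had a correlation of deviations over 0.1 (lowest 0.0988, mean 0.205, against -0.102 for other pairs). With the replicate block, 5 genes were called lower in treated PRC1CPM cells and 4 with DESeq2, of which Hoxd13 and Hoxd8 were in both. It called 4 interactions (1 with DESeq2), and 2 genes (Hoxd11 and Hoxd3) were called higher in untreated PRC1CPM than in untreated PRC1CKO cells (0 with DESeq2). The limma block moved the counts over all rows from 37 to 232 lower in treated PRC1CPM cells, from 4 to 246 lower for the interaction, and from 374 to 1631 higher in untreated PRC1CPM cells.

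Over all rows, 37 were called lower and 212 higher in treated PRC1CPM cells by limma, 261 and 524 with TMM, and 85 lower by DESeq2, 59 by edgeR and 82 by edgeR on read pairs. TMM moved the median of all rows from 0.12 to -0.0019 in PRC1CKO cells and from 0.10 to -0.0072 in PRC1CPM cells, and the calls from 2787 higher and 524 lower to 2845 and 1133 and from 2226 and 237 to 2396 and 595. Leaving out the gDNA-seq correction moved the median of all rows from 0.10 to 0.39 in PRC1CPM cells and from -0.018 to 0.43 for the interaction, so the scale limits small differences between lines. With 0 to 12 reads in an untreated group, the size of the change of Hoxd12, Hoxd11, Hoxd10 and Hoxd4 is known only roughly, as is that of Hoxd3, Hoxd8 and Hoxd9, which moved by over 1.5-fold in 1 or both lines without 1 untreated library.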
